A study of Arabidopsis thaliana with 16 samples.

Results

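Across the seed at the heart stage of Arabidopsis thaliana, 61 genes, measured by 62 probe sets, gave similar signal in the embryo proper, the micropylar endosperm and the peripheral endosperm and low signal in the chalazal endosperm. They were chosen for that difference. A probe set, the group of array probes that reports 1 transcript, entered if the platform annotation gave it exactly 1 gene, named by a locus code rather than a symbol. After values below 100 were set to 100, its lowest array among the first 3 regions had to be at least 4 times its highest chalazal endosperm array. The 3 region means had to lie within 1.5-fold of each other, and 3 genes that the rule names were left out, none of which met its other terms. The members were 0.520% of the 11930 probe sets that could enter, which stand for 11795 genes. Of the 784 that were evenly high in the 3 regions whatever their chalazal endosperm signal, called the evenly high set below, the members were 7.91%. The low signal in the chalazal endosperm is therefore a description and was not tested.

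All groups were Ws-0 plants 38 to 46 days old, and their seeds came from siliques of 1.2 to 1.5 cm with embryos 52 to 85 micrometres long. Laser capture microdissection, in which chosen areas are cut from tissue sections under a microscope, was run on paraffin sections fixed in ethanol and acetic acid. It gave the embryo proper, micropylar endosperm, peripheral endosperm and seed coat with 2 arrays each, both chalazal tissues (endosperm and seed coat) with 3 arrays each, and whole seeds, also cut from sections, with 2 arrays. Each sample, 5 to 6 ng of RNA before amplification, went onto 1 Affymetrix ATH1 array. The labels call the samples biological replicates and name no plants, so every test measures the spread between these 16 samples, and the number of arrays limits its precision.

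The endosperm of Arabidopsis starts as a syncytium, in which nuclei divide without walls between them. Around the heart stage walls form in the micropylar endosperm, which surrounds the embryo, and then in the peripheral endosperm, which lines the seed cavity. The chalazal endosperm stays a multinucleate cyst for longer and faces the chalazal seed coat, the maternal tissue where the vascular supply ends. Of the 61 genes, all annotated as protein coding, the gene table used here gives a product name to AT1G74470 alone, geranylgeranyl reductase, a plastid enzyme that makes the phytyl chain of chlorophyll and of tocopherols. The others are described by locus, without a role.

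The values are the deposited signals on a linear scale, which reached a trimmed mean near 500 on every array. Array medians differed by up to 1.85-fold. A bound on background was taken from 27 Bacillus control probe sets as their 95th percentile on each array. It was 161, 109 and 54.8 on chalazal endosperm arrays 1, 2 and 3 and between 31.1 and 137 on the others. The share of all signal held by the top 100 probe sets was 18.4% to 22.7% in the chalazal endosperm and 12.2% to 16.9% elsewhere. The signal of the cre hybridisation controls was 193622 to 269817 there, 197800 to 242452 in the chalazal seed coat and 92052 to 199875 in the other groups. The ratio of the 3' to the 5' probe set of the GAPDH control was 24.7, 3.49 and 4.81 on chalazal endosperm arrays 1, 2 and 3. On the other arrays it was 3.56 to 19.5. The part of these differences in the low signals of the members was not tested.

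Marker genes listed for each tissue were few on the array under a name. The chalazal endosperm markers CYP79A2 and UBC31, 2 of the 4 listed, summed to 46180 to 81080 in the tissue they mark, to 1363 to 5563 in the chalazal seed coat, to 2204 to 3023 in whole seeds and to 144 or less in the other compartments. Seed coat markers, 3 of 9, summed to 385 to 776 in the chalazal endosperm and to 19880 or more in both coat groups, but also to 1684 to 4393 in the peripheral endosperm. Embryo markers, 2 of 12, summed to 1344 to 1845 in the embryo proper and to 577 or less elsewhere. Endosperm markers, 3 of 10, did not separate the micropylar and peripheral endosperm, at 262 to 366, from the embryo proper, at 226 to 249, and summed to 863 to 1723 in the chalazal endosperm and 388 to 1082 in the chalazal seed coat. In dissected tissue, fewer cells that use a gene and less of its RNA per cell cannot be told apart.

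**Figure D1:**
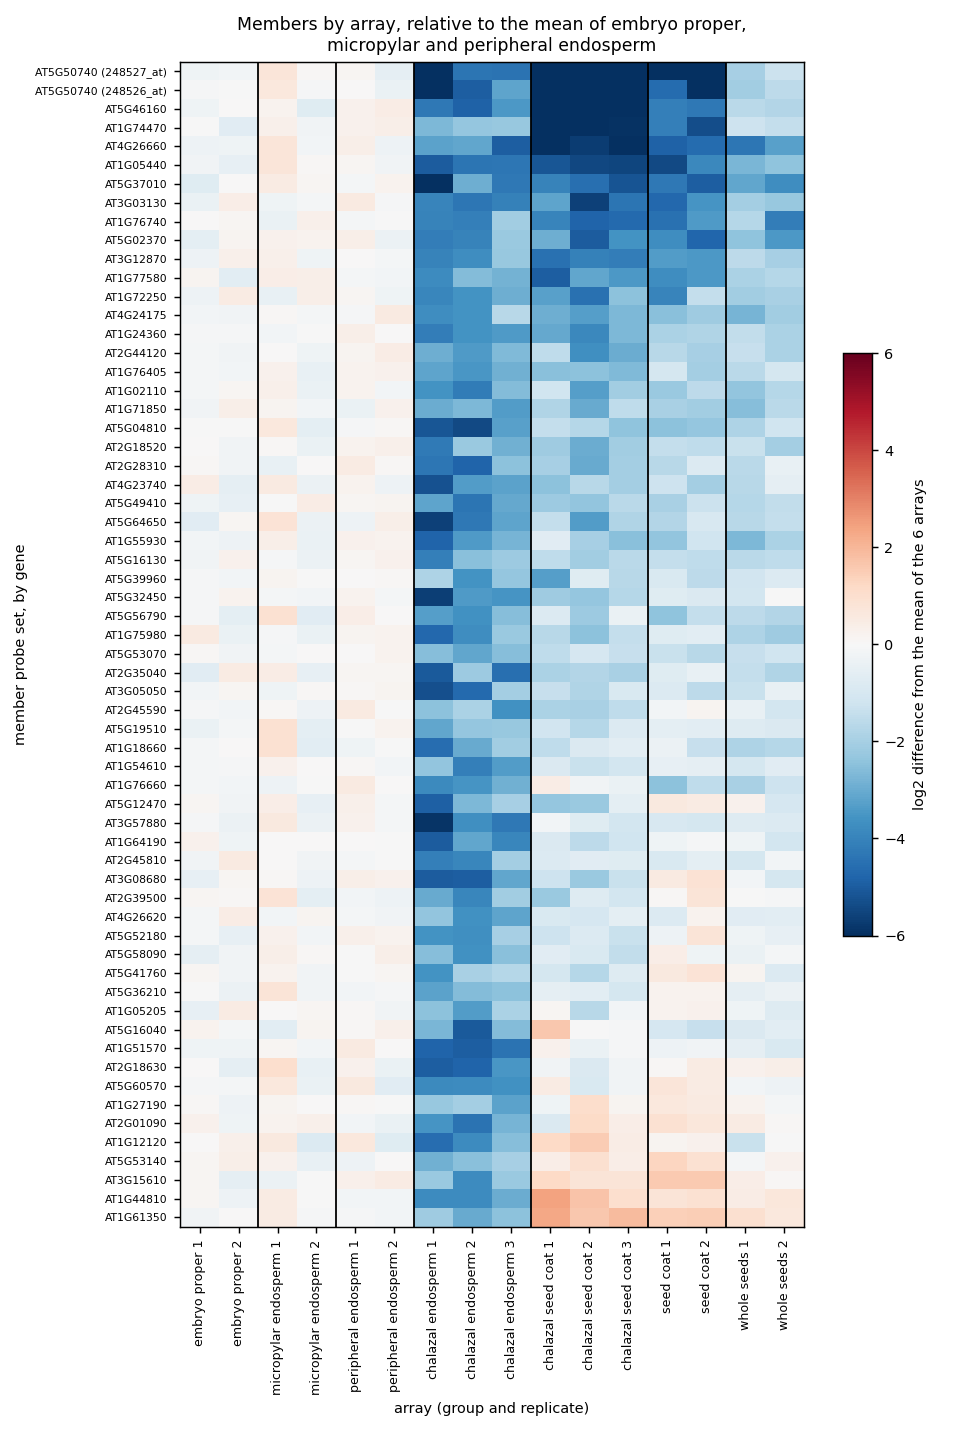
Each row is a member probe set and each column 1 of the 16 arrays. Colour gives the log2 difference of that array from the mean of the 6 arrays of the embryo proper, micropylar endosperm and peripheral endosperm, on signals with an offset and centred on array medians, with the scale ending at 6 on either side. Rows are sorted by their mean in the seed coats. The 3 chalazal endosperm columns are low in all 62 rows by choice, while the seed coat columns run from far below the 3 regions at the top to above them in the last rows.

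The median over members of the group mean signal was 1998 in the embryo proper, 1885 in the micropylar endosperm and 1974 in the peripheral endosperm, and 111 in the chalazal endosperm. The arrays of the coats and whole seeds did not enter the choice, though whole seeds contain the 3 regions. There the same median was 599 in the chalazal seed coat, 954 in the seed coat and 1184 in whole seeds. On the log2 scale used for testing, the difference of the chalazal endosperm from the mean of the 3 regions ran from -4.99 to -2.41 over members, with a median of -3.44; these are model values, with no exact size where arrays lay at or under background. The embryo proper held the highest of the 3 region means for 23 members, the micropylar endosperm for 23 and the peripheral endosperm for 16. In that order these were 37.1%, 37.1% and 25.8% of the members, against 36.35%, 28.7% and 34.95% of the evenly high set. The difference was not tested.

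How low the members were depended on the chalazal endosperm array. Signal lay at or under the background bound for 41 members on array 1, for 33 on array 2 and for 7 on array 3, the array with the lowest bound. These were 66.1%, 53.2% and 11.3% of the members, against 10.2%, 8.80% and 1.79% of the evenly high set. The choice builds in that difference. Array 3 was the highest of the 3 for 39 members, array 1 for 13 and array 2 for 10. In the evenly high set array 3 was the highest for 40.4%, array 2 for 31.1% and array 1 for 28.4%. For 15 members no chalazal endosperm array lay at or under its bound, for 17 members 1 array did and for 26 members 2 did. These were 24.2%, 27.4% and 41.9% of the members, against 85.5%, 8.80% and 5.23% of the evenly high set, which the choice also builds in.

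Only 4 members, AT1G51570, AT1G05440, AT1G72250 and AT4G26620, were at or under the bound on all 3 chalazal endosperm arrays. They were 6.45% of the members, against 0.51% of the evenly high set with that pattern. The signal of AT1G51570 was 1239.8 and 1200.2 in the embryo proper, 1276 and 1258 in the micropylar endosperm and 1928 and 1326 in the peripheral endosperm, against 13.5, 4.17 and 17.7 in the chalazal endosperm. Its chalazal seed coat arrays gave 1475, 1185 and 1496, its seed coat arrays 1156 and 1147, and its whole seed arrays 1125 and 918. This gene was thus at a like level on every array outside the chalazal endosperm. Set against the bound, chalazal endosperm signal was at least 8.39-fold lower than the mean of the 3 regions for AT1G51570, at least 7.85-fold for AT1G05440, at least 4.79-fold for AT1G72250 and at least 4.47-fold for AT4G26620.

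By the rule for genes to be shown, the 5 members with the highest mean signal in the 3 regions come first, a choice by level of probe sets whose brightness is not comparable between them. AT5G16130 gave 12783 and 17372 in the embryo proper, 10900.0 and 10725 in the micropylar endosperm, and 14094 and 15281 in the peripheral endosperm. On the chalazal endosperm arrays it gave 669, 1746 and 2186, which are above the bound. Its signal was 4271, 3653 and 4965 in the chalazal seed coat, 5139 and 4582 on the seed coat arrays, and 5395 and 5915 in whole seeds. The maternal tissues and whole seeds thus fell between the chalazal endosperm and the 3 regions without overlap with either.

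AT2G44120 gave 11522 and 10412 in the embryo proper, 10113 and 9852 in the micropylar endosperm and 12204 and 14615 in the peripheral endosperm. Chalazal endosperm signal was 1303, 793 and 1305, and chalazal seed coat signal 3534, 990.4 and 1661, so that these neighbouring tissues overlapped. Seed coat arrays gave 3782 and 2834 and whole seed arrays 5382 and 3928, all above the chalazal endosperm.

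AT5G19510 was uneven between its micropylar endosperm arrays, at 16404 and 6793, beside 8188 and 9784 for the embryo proper and 9413 and 10815 in the peripheral endosperm. Its chalazal endosperm signal was 978, 1454 and 1473. It gave 3983, 3479 and 6382 in the chalazal seed coat, 6809.7 and 6368 on the seed coat arrays, and 7037 and 6896 in whole seeds. The seed coat and whole seeds reached the lower micropylar endosperm array. The other genes among the 5, AT5G50740 and AT1G24360, passed a test in groups outside the choice and are described there.

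The threshold of 4-fold was passed most narrowly by AT1G18660, at a ratio of 4.11, and AT1G05205, at 4.12. The signal of AT1G18660 was 2218 and 2364 in the embryo proper, 3580.4 and 1456 in the micropylar endosperm, 1751 and 2026 in the peripheral endosperm, and 52.2, 175 and 354 in the chalazal endosperm. Its other arrays gave 673, 1369 and 1608 in the chalazal seed coat, 1783 and 810.5 on the seed coat arrays, and 717 and 837 in whole seeds. Both coats and whole seeds thus lay above its chalazal endosperm arrays. AT1G05205 gave 1695 and 3301 in the embryo proper, 1915 and 2442 in the micropylar endosperm, 2201 and 1797 in the peripheral endosperm, and 321, 131 and 411 in the chalazal endosperm. Its chalazal seed coat gave 2139, 768 and 2217, its seed coat 2691 and 2612, and whole seeds 2257 and 1638. Both genes were brightest on chalazal endosperm array 3 within that group, and it was this array that set their ratio. Just outside lay AT3G19120, at 3.90, and AT4G15820, at 3.86. For the evenness limit of 1.5-fold, AT1G75980 and AT3G15610 lay just inside, each at 1.49, and AT3G22660 and AT2G22610 just outside, each at 1.52.

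The seed coats, which took no part in the choice, divided the members. With 5 seed coat arrays in all, 46 probe sets lay above the bound on each of them, 74.2% of the members against 93.1% of the evenly high set, which contains the members. Among these 46, 19 had all 5 seed coat arrays below all 6 arrays of the 3 regions, 24 overlapped the 3 regions, and 3 lay above them. The 19 were 30.6% of the members, against 23.9% of the evenly high set with that pattern, and the 24 were 38.7%, against 65.1%. At the other end, 10 members were at or under the bound on 3 or more seed coat arrays, 16.1% against 1.79% of the evenly high set. On 1 or 2 seed coat arrays 6 members were so, 9.68% against 5.10%. These are counts on deposited signals, given without a test.

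The genes at or under the bound on most seed coat arrays were AT5G50740 by probe set 248527_at, AT5G46160, AT5G02370, AT4G26660, AT3G12870, AT3G03130, AT1G77580, AT1G72250, AT1G76740 and AT1G05440. Their mean signal in the chalazal seed coat ran from 3.25 to 86.6, and that in the seed coat from 24.2 to 408. In AT5G02370, AT3G12870, AT1G76740 and AT1G05440 no coat array, of either kind, exceeded the bound. AT5G02370 gave 659 and 1089.5 in the embryo proper, 938 and 1092 in the micropylar endosperm, 1109.8 and 655 in the peripheral endosperm, and 17.3, 13.9 and 119 in the chalazal endosperm. Its seed coat arrays gave 82.8, 3.91 and 60.6 on the chalazal side and 44.1 and 4.23 elsewhere, and its whole seed arrays 183 and 80.1, the second under the bound. AT1G76740 had a like profile, with 885 and 917 in the embryo proper, 16.6, 3.44 and 7.03 in the chalazal seed coat, 8.07 and 44.5 on the seed coat arrays, and 271 and 28.9 in whole seeds. For these 4 genes signal above background was thus seen in the 3 regions, on at least 1 whole seed array, and on chalazal endosperm array 3 in all but AT1G05440.

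Signal at or under the bound on 1 or 2 seed coat arrays was found for AT1G02110, AT1G74470, AT4G24175, AT5G37010, AT5G39960 and AT5G50740 by its other probe set, 248526_at. AT5G50740 is the 1 gene with a pair of member probe sets, and their log2 values correlated at r = 0.97 over the 16 arrays, which share tissue, amplification and scaling.

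The 19 probe sets above the bound in the seed coats but below the 3 regions were AT1G24360, AT1G54610, AT1G55930, AT1G71850, AT1G75980, AT1G76405, AT2G18520, AT2G28310, AT2G44120, AT2G45810, AT3G05050, AT3G57880, AT4G23740, AT5G04810, AT5G16130, AT5G32450, AT5G49410, AT5G53070 and AT5G64650. Their chalazal seed coat means ran from 252 to 4296 and their seed coat means from 335 to 4860. AT3G57880 shows a narrow case, with 2187, 1915 and 1433 in the chalazal seed coat and 1449 and 1274 in the seed coat. Its lowest array in the 3 regions gave 2193, only just above them, while the chalazal endosperm gave 10.5, 133 and 74.6. AT5G32450 had 454, 499 and 782 in the chalazal seed coat, 1415 and 1206 on the seed coat arrays, and 1845 or more in the 3 regions, against 10.8, 136 and 115 in the chalazal endosperm.

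Overlap between seed coats and the 3 regions was found for AT1G05205, AT1G12120, AT1G18660, AT1G27190, AT1G51570, AT1G64190, AT1G76660, AT2G01090, AT2G18630, AT2G35040, AT2G39500, AT2G45590, AT3G08680, AT4G26620, AT5G12470, AT5G16040, AT5G19510, AT5G36210, AT5G41760, AT5G52180, AT5G53140, AT5G56790, AT5G58090 and AT5G60570. Mean signal in the chalazal seed coat ran from 269 to 4615 over these 24 and in the seed coat from 195 to 6846.

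AT3G15610, AT1G44810 and AT1G61350 were brighter on all 5 seed coat arrays than on any array of the 3 regions. AT1G44810 gave 34537, 26964 and 16264 in the chalazal seed coat and 12747 and 13350.0 in the seed coat, beside 428, 361 and 640.0 in the chalazal endosperm. Its arrays of the 3 regions lay from 5927 to 8641 and its whole seed arrays at 11674 and 14650.0. The tissue that borders the chalazal endosperm was thus the brightest for this gene and the chalazal endosperm the dimmest. AT1G61350 repeated that order, with 6989, 5437 and 6583 in the chalazal seed coat, 4314 and 4213 on the seed coat arrays, 1250.3 to 1849.7 in the 3 regions, 3568 and 2997 in whole seeds, and 278, 113 and 173 in the chalazal endosperm. AT3G15610 was brightest in the seed coat, at 2546 and 2358, with 1672, 1578 and 1608 in the chalazal seed coat and 126, 15.7 and 103 in the chalazal endosperm. The share of the evenly high set with this pattern was 4.21%, against 4.84% of the members. The order of the coats in these genes describes the arrays only. In the limma test between the coats, explained below, none of them passed. The adjusted p was 0.192 for AT1G44810, 0.549 for AT1G61350 and 0.493 for AT3G15610.

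For 43 members, 69.4%, all 3 chalazal seed coat arrays lay above every chalazal endosperm array, and for the same 43 genes all 13 arrays outside the chalazal endosperm did. In the evenly high set these shares were 20.9% and 16.1%. Since the choice made the chalazal endosperm low, nothing is read from this count. In AT1G05440, AT1G74470, AT4G26660, AT5G46160 and 248527_at of AT5G50740 the chalazal seed coat lay instead below every chalazal endosperm array, as it did in 19.1% of the evenly high set. Of these, only AT1G74470 and AT5G46160 had no chalazal endosperm array at or under the bound. In AT1G05440 every array of both tissues was under it, so nothing is read from its order. In AT4G26660 the chalazal seed coat gave 4.95, 25.2 and 8.38, under the bound. Its chalazal endosperm gave 212, 188 and 31.1, the last under the bound. For 248527_at, 1 chalazal endosperm array was under the bound.

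Whether the members differed between the chalazal seed coat and the seed coat was tested with limma, a linear model fitted to all 19475 probe sets bright enough, with Benjamini-Hochberg adjustment over all of them and a threshold of 0.05. The chalazal seed coat was lower for 7 members, 11.3%, and higher for 1, AT1G76660, which is 1.61%. Over all probe sets tested 5.64% were lower and 5.21% higher. In the evenly high set 37 probe sets were lower, 4.72%, and 7 of these 37 were the members. The other 54 members did not pass, which with 3 arrays against 2 does not show that they were equal. The median log2 difference was -0.65 over members, -0.20 over the evenly high set and 0.05 over all tested, and the difference lay below 0 for 79.0%, 57.1% and 48.1% of their probe sets.

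**Figure D2:**
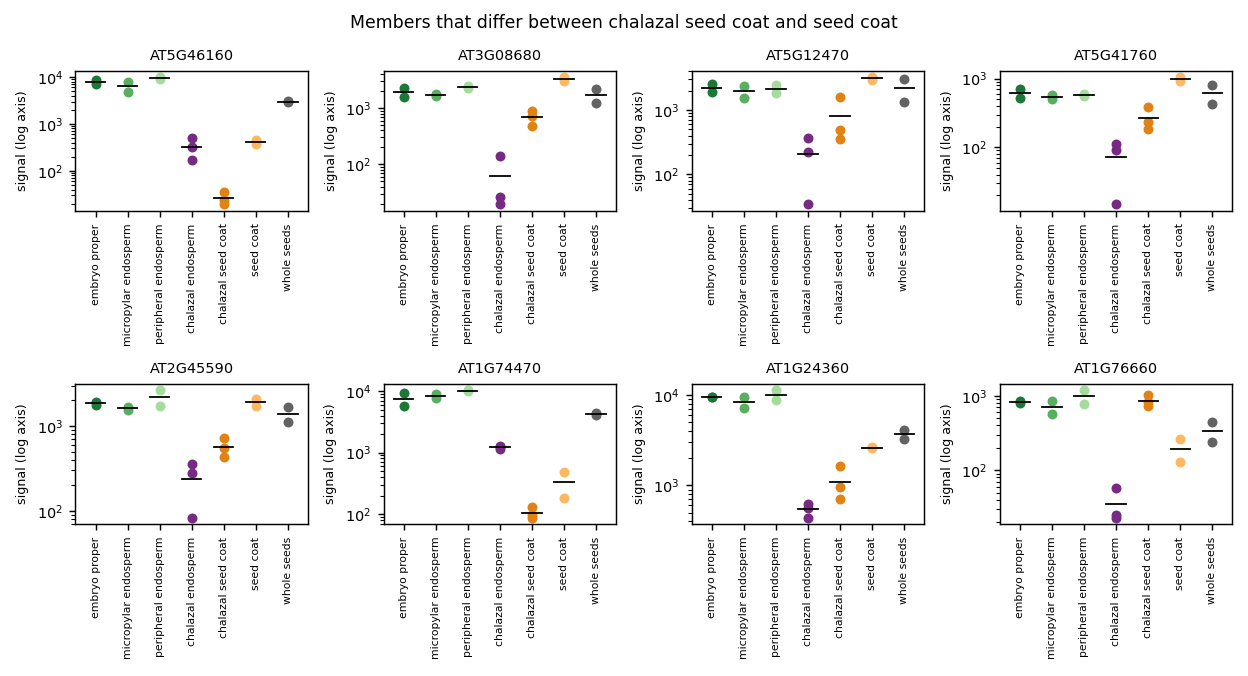
Signal on a log axis in each of the 7 groups for the 8 members that passed the test between chalazal seed coat and seed coat. Points are arrays and bars are group means. In 7 panels the chalazal seed coat points lie under the seed coat points, and in the panel of AT1G76660 they lie above them.

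AT5G46160 had the smallest adjusted p between the coats. Its signal was 7165 and 8459 in the embryo proper, 7872 and 4899 in the micropylar endosperm, 8951 and 9976 in the peripheral endosperm, and 324, 171 and 493 in the chalazal endosperm. The chalazal seed coat gave 24.0, 35.1 and 19.3, all under the bound, and the seed coat 449 and 367. The groups did not overlap, and the chalazal seed coat was at least 3.46-fold lower against the bound (limma adjusted p = 5.09e-05). In this gene the seed coat overlapped the chalazal endosperm, while the chalazal seed coat was dimmer than both.

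AT1G74470, geranylgeranyl reductase, gave 9381 and 5725 in the embryo proper, 9043 and 7659 in the micropylar endosperm, 9942 and 10277 in the peripheral endosperm, and 1129, 1251 and 1283 in the chalazal endosperm. In the chalazal seed coat it gave 95.7, 87.1 and 131, 1 of them under the bound, and in the seed coat 486 and 185. Both coats were thus dimmer than the chalazal endosperm. The log2 difference between the coats was -1.38 ± 0.45 (SE; limma adjusted p = 0.0444). This call was lost in 11 of the other settings, among them an offset of 100 (adjusted p = 0.0931), no intensity trend (0.091) and the fits without chalazal seed coat array 1 (0.0526) or 2 (0.12), and without seed coat array 1 the difference was -0.79 (0.533).

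AT3G08680 was bright in the seed coat, at 3023 and 3565, above its 1569.9 to 2473 in the 3 regions. Its chalazal seed coat gave 737, 472 and 897 and its chalazal endosperm 26.7, 19.4 and 142. Signal thus fell in steps from the seed coat to the chalazal seed coat to the chalazal endosperm, with no overlap. The coats differed by -2.29 ± 0.54 (limma adjusted p = 0.0049), a call lost without seed coat array 2 (adjusted p = 0.0938).

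The same order of the 3 tissues, without overlap, was seen in AT5G41760 and AT2G45590. AT5G41760 gave 925 and 1057 in the seed coat, 237, 185 and 384 in the chalazal seed coat and 14.8, 91.3 and 110.3 in the chalazal endosperm. AT2G45590 gave 1722 and 2096 in the seed coat, 434, 546 and 726 in the chalazal seed coat and 280.5, 355 and 82.8 in the chalazal endosperm. The log2 difference between the coats was -1.89 ± 0.58 (limma adjusted p = 0.0327) for AT5G41760 and -1.78 ± 0.50 (adjusted p = 0.0188) for AT2G45590. Neither call held without chalazal seed coat array 2 (adjusted p = 0.113 and 0.051), seed coat array 1 (0.145 and 0.0889) or seed coat array 2 (0.241 and 0.205), and that of AT5G41760 was also lost without chalazal seed coat array 1 (0.0526) and with an offset of 1 (0.122). In the 3 regions AT5G41760 lay from 513 to 710.2 and AT2G45590 from 1563 to 2634.

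AT5G12470 gave 3265 and 2971 in the seed coat and 356, 492 and 1612 in the chalazal seed coat, whose lowest array overlapped the 34.0, 219 and 366 of the chalazal endosperm. Its log2 difference between the coats was -2.25 ± 0.65 (limma adjusted p = 0.0213). The call was lost without chalazal seed coat array 1 (adjusted p = 0.0892) or 2 (0.0842), without seed coat array 1 (0.154) or 2 (0.147), and with an offset of 1 (0.0808). In the 3 regions it lay from 1542 to 2516.

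AT1G24360 was bright in the 3 regions, with 9659 and 9439 in the embryo proper, 7206 and 9559 in the micropylar endosperm and 11326 and 8839.5 in the peripheral endosperm. It gave 438, 557 and 628 on the chalazal endosperm arrays, 968, 701 and 1638 in the chalazal seed coat, 2591 and 2646 on the seed coat arrays, and 4105 and 3242 in whole seeds. Each of these groups lay below the next without overlap, and the coats differed by -1.37 ± 0.42 (limma adjusted p = 0.0306). That call was lost without chalazal seed coat array 2 (adjusted p = 0.145), seed coat array 1 (0.159) or seed coat array 2 (0.214), and without the intensity trend (0.0896).

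AT1G76660, the 1 member higher in the chalazal seed coat, gave 1041, 821 and 721 there and 131 and 260.1 in the seed coat. The 3 regions gave 848 and 792, 571 and 844, and 1190.5 and 789.8 in the order embryo proper, micropylar and peripheral endosperm, and the chalazal endosperm gave 22.9, 24.6 and 56.9. The chalazal seed coat thus overlapped the 3 regions, and the seed coat lay between them and the chalazal endosperm. The log2 difference between the coats was 1.96 ± 0.54 (limma adjusted p = 0.0157). It did not pass without chalazal seed coat array 1 (adjusted p = 0.0565) or without seed coat array 1 (adjusted p = 0.26).

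These counts rest on single arrays. The number of members lower in the chalazal seed coat was 3 without chalazal seed coat array 2, and 2 without seed coat array 1 and 2 without seed coat array 2. Over all probe sets the 1098 lower became 537 and 436 without those seed coat arrays, and the 1014 higher became 553 and 539. The call of AT5G46160 held in every setting run. Chalazal endosperm markers summed to 1363 or more on all chalazal seed coat arrays and to 131 or less on the seed coat arrays, endosperm markers to 388 to 1082 and to 329 to 379.5, and the part of these differences in the coat comparison was not tested.

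Whole seeds hold the embryo and endosperm beside the coats, and their comparison with the coats asks which members were brighter in the seed than in its maternal layers. Against the mean of both seed coat groups, 7 member probe sets of 6 genes were higher in whole seeds, 11.3%, where 1.81% of all probe sets tested were. Whole seeds contain the 3 regions, where the choice asked for signal of at least 400 on each array. A member dim in the coats therefore leans to higher in whole seeds by the choice, and nothing is read from the direction. The evenly high set, held to the same signal in the 3 regions, had 1.40% higher. No member was lower by limma at an adjusted p of 0.05, where 0.334% of all probe sets were, and 3 were lower at an unadjusted p under 0.05. The share over all probe sets rests on both whole seed arrays, since the 352 higher became 136 without array 1 and 107 without array 2, and the 65 lower became 20 and 2. Of the 11 probe sets of the evenly high set that were higher, 7 were members. The median difference was 0.13 over members, -0.19 over the evenly high set and -0.19 over all tested. Without centring it was 0.40 over members and 0.08 over all tested.

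**Figure D3:**
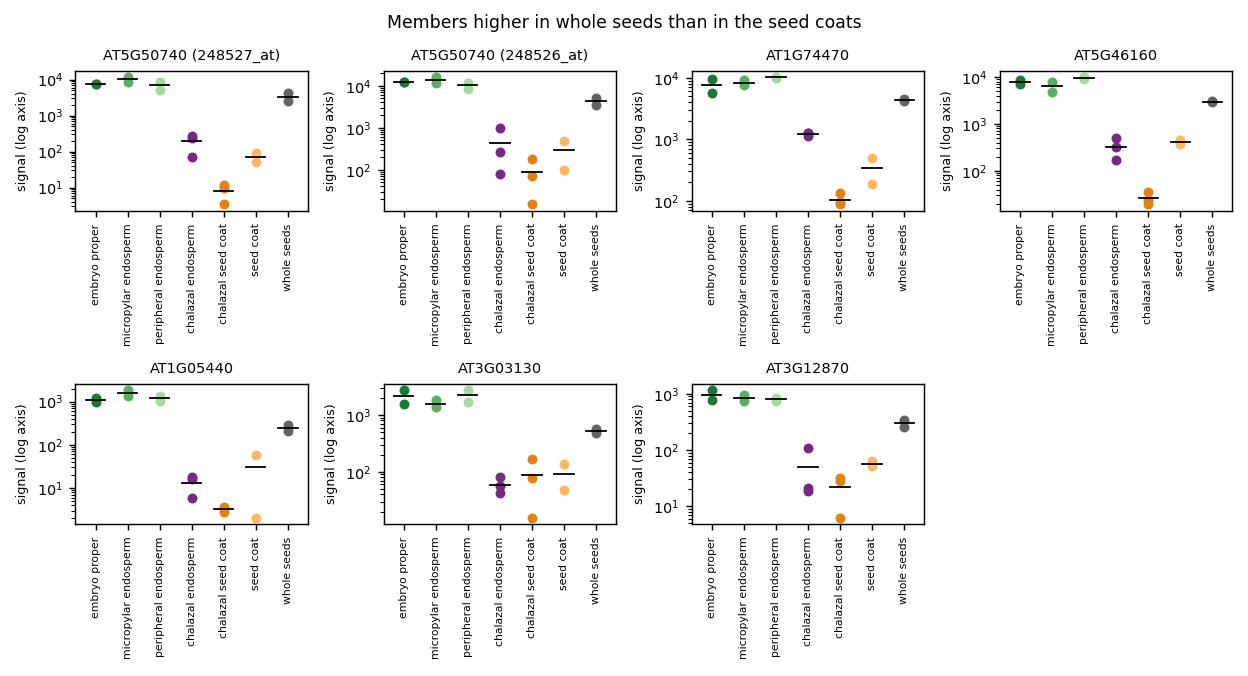
Signal on a log axis in each of the 7 groups for the 7 member probe sets higher in whole seeds than in the mean of both seed coats. Points are arrays and bars are group means. In each panel the whole seed points lie above all seed coat points and below the points of the embryo proper, micropylar and peripheral endosperm.

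AT5G50740 had the smallest adjusted p. Its probe set 248527_at gave 7341 and 7717 in the embryo proper, 11733 and 8766 in the micropylar endosperm, 8561 and 5219 in the peripheral endosperm, and 71.5, 263 and 244 in the chalazal endosperm. The chalazal seed coat gave 3.42, 9.65 and 11.5, all under the bound, the seed coat 52.4 and 91.5, and whole seeds 2457 and 4187. Whole seeds were higher than the coats (limma adjusted p = 9.74e-08), and the model's log2 difference of 5.44 ± 0.50 is no exact size, since 4 of the 5 coat arrays lay at or under the bound. The second probe set, 248526_at, showed the same order of whole seeds, coats and 3 regions. The chalazal endosperm overlapped the seed coat in the first probe set and both coats in the second. The second gave 12491 and 12507 in the embryo proper, 78.7, 265 and 964 on the chalazal endosperm arrays, 71.9, 14.9 and 177 in the chalazal seed coat, 493 and 97.9 on the seed coat arrays, and 3504 and 5189 in whole seeds. The model's difference was 4.48 ± 0.65 (adjusted p = 1.01e-04), with 2 coat arrays under the bound.

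For AT1G74470, whose compartment values are given above, whole seeds gave 4458 and 4120.0 and lay above both coats by a model log2 difference of 4.08 ± 0.41 (limma adjusted p = 5.08e-07), with 1 coat array under the bound. For AT5G46160 they gave 3074 and 2913, higher by a model difference of 4.0 ± 0.44 (adjusted p = 1.75e-06), which is no exact size because the 3 chalazal seed coat arrays lay under the bound. In both genes whole seeds lay between the coats and the 3 regions, and above the chalazal endosperm. These 2 genes were the members that passed both tests. The whole seed calls of AT1G74470, AT5G46160 and both AT5G50740 probe sets held in every setting run. The call of AT1G74470 between the coats did not.

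The other 3 genes were dimmer. AT1G05440 gave 1189 and 973 in the embryo proper, 1829 and 1371 in the micropylar endosperm, 1348 and 1040.2 in the peripheral endosperm, and 207 and 287 in whole seeds. It gave 5.71, 16.1 and 17.8 on the chalazal endosperm arrays, 3.54, 3.39 and 2.82 in the chalazal seed coat and 2.04 and 59.2 in the seed coat, all under the bound. Whole seeds were higher than the coats by at least 1.88-fold against the bound, with a limma adjusted p of 0.0102. The gene was thus above background in the 3 regions and whole seeds alone.

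AT3G12870 gave 783 and 1154 in the embryo proper, 944 and 760.4 in the micropylar endosperm, 845 and 757 in the peripheral endosperm, and 18.8, 21.5 and 108 in the chalazal endosperm. Its coats gave 6.27, 31.3 and 28.4 on the chalazal side and 63.0 and 51.2 elsewhere, under the bound, and whole seeds 343 and 260.5. That is at least 2.26-fold higher in whole seeds (limma adjusted p = 0.0417).

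AT3G03130 gave 1569.9 and 2707 in the embryo proper, 1365 and 1808 in the micropylar endosperm, 2701 and 1698 in the peripheral endosperm, and 81.4, 42.7 and 55.5 in the chalazal endosperm. The chalazal seed coat gave 167, 15.6 and 76.8, the seed coat 48.1 and 136, and whole seeds 558 and 486. Here the coats and the chalazal endosperm overlapped, and whole seeds were higher than the coats by a model difference of 2.10 ± 0.56 (limma adjusted p = 0.0439), with 3 coat arrays under the bound. The calls of AT1G05440, AT3G12870 and AT3G03130 were lost without whole seed array 1 (adjusted p = 0.102, 0.401 and 0.368), without whole seed array 2 (0.223, 0.228 and 0.288) and without seed coat array 1 (0.0667, 0.0951 and 0.188), which leaves 4 members called in each case. The call of AT3G12870 was lost in 12 settings in all and that of AT3G03130 in 14.

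**Figure D4:**
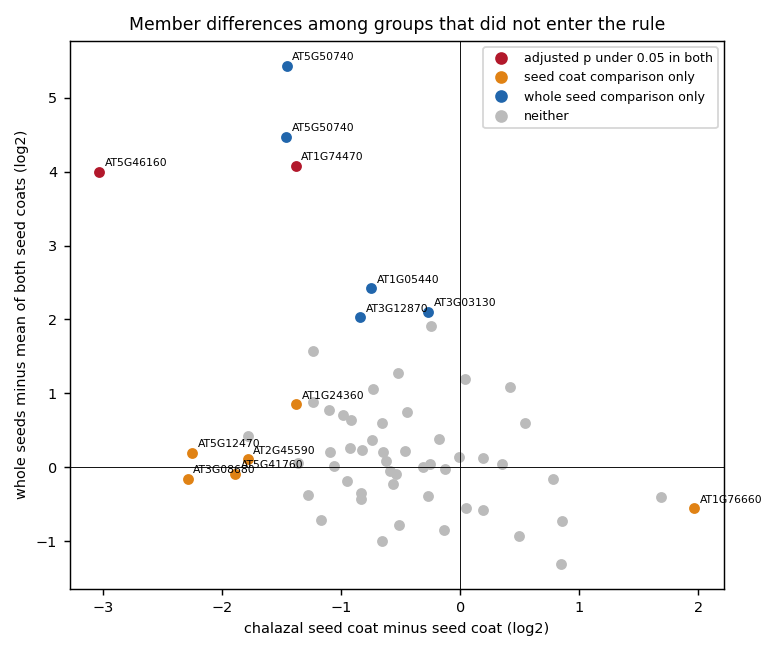
Each point is a member probe set, with the log2 difference of the chalazal seed coat from the seed coat on the horizontal axis and that of whole seeds from the mean of both coats on the vertical axis. Colour marks an adjusted p under 0.05 in both comparisons, in 1 or in neither. AT5G46160 and AT1G74470 passed both, and most points lie to the left of 0, as 49 of 62 do. Both comparisons use the same coat arrays, so the position of a point on one axis is not independent of the other.

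The chalazal endosperm against the 3 regions is the comparison that chose the members, and it was tested only for genes of 5 lists that hold no member. These lists were mitosis, phragmoplast and cytokinesis, DNA replication, cell wall synthesis and plastid biogenesis, and 22 of their 130 genes were named and tested. The lists were chosen with earlier results of these data known, so their counts are no independent support. Of the 22, 13 were lower in the chalazal endosperm and 2 higher, where 20.3% of all probe sets tested were lower and 25.1% higher. Over all probe sets that split changed with the setting. Of all calls 55.2% were higher in the main setting, 40.2% without centring, 46.7% with quantile normalization and 47.8% with no filter. The median of all probe sets moved from 0.28 to -0.05 without centring and to 0.06 with quantile normalization, while the lists gave 13 or 14 lower and 2 higher in these settings.

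Of 10 mitosis genes 6 were lower, 4 did not pass and none was higher, also at an unadjusted p under 0.05. The mitotic chromosome proteins 3xHMG-box2 (AT4G23800) and 3xHMG-box1 (AT4G11080) were lower by log2 differences of -4.21 ± 0.44 (limma adjusted p = 1.15e-08) and -2.96 ± 0.54 (adjusted p = 7.34e-05), the second with 1 chalazal endosperm array under the bound. BUBR1 (AT2G33560), of the spindle checkpoint, was at or under the bound in the chalazal endosperm and at least 3.31-fold lower. CAP-D2 (AT3G57060) and CAP-E2 (AT3G47460), subunits of condensin, which compacts chromosomes, were also lower, as was the checkpoint gene BUB3.1 (AT3G19590). CAP-D2 had 1 chalazal endosperm array at or under the bound. CAP-E2 was at or under it on all 3 and on 2 arrays of the 3 regions, and was at least 1.51-fold lower. The kinases AUR1, AUR2 and AUR3 and the centromeric histone CENH3 did not pass, with differences from -1.18 to 0.69.

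Among 7 phragmoplast and cytokinesis genes 5 were lower and 2 higher. The phragmoplast is the microtubule array that guides the new wall between daughter nuclei. The kinase gene TIO (AT1G50240), which acts in the phragmoplast, was lower by at least 7.09-fold against the bound, and the kinesins PAKRP2 (AT4G14330) and PAKRP1L (AT3G23670) by log2 differences of -4.06 ± 0.47 (limma adjusted p = 8.27e-08) and -2.46 ± 0.43 (adjusted p = 4.07e-05), of which that of PAKRP2 is no exact size, with 2 chalazal endosperm arrays under the bound. KRP125b (AT2G36200) and KRP125c (AT2G28620), kinesins of the spindle type, were lower as well, the second with 2 chalazal endosperm arrays at or under the bound. KEULE (AT1G12360), which acts in vesicle fusion at the cell plate, was higher by 2.44 ± 0.35 (adjusted p = 2.69e-06), and KRP125a (AT2G37420) by 2.20 ± 0.39 (adjusted p = 5.3e-05). The list therefore did not move 1 way.

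In the other lists few genes were measured under a name. MCM7 (AT4G02060), a subunit of the replicative helicase, was lower by a log2 difference of -2.58 ± 0.40 (limma adjusted p = 8.05e-06), and the polymerase gene ICU2 (AT5G67100) did not pass at -0.67 ± 0.48. Neither cell wall gene, COBRA or CSLC4, passed, with no call at an unadjusted p under 0.05 either. The plastid division gene FTSZ2-1 (AT2G36250) was at or under the bound on all 3 chalazal endosperm arrays and at least 11.1-fold lower.

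**Figure D5:**
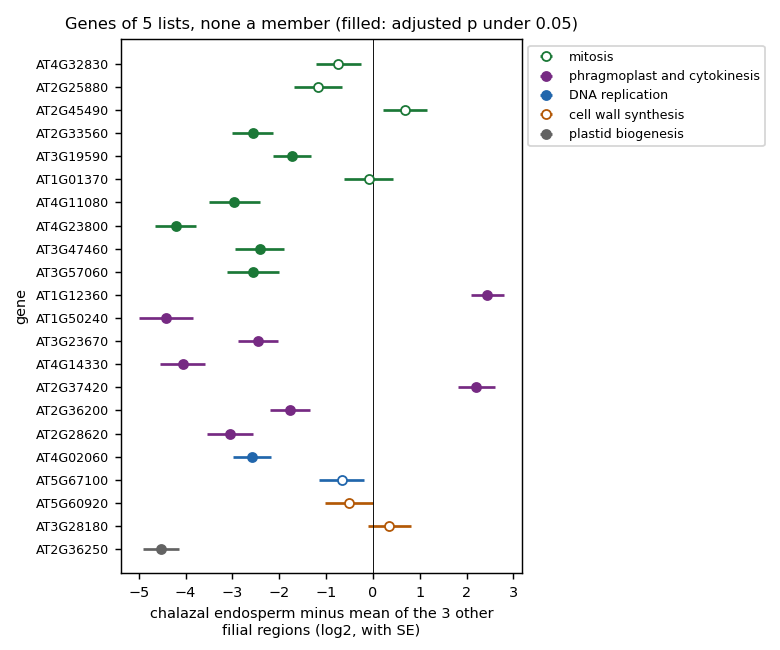
Log2 difference of the chalazal endosperm from the mean of the embryo proper, micropylar endosperm and peripheral endosperm, with the SE of the model as a bar, for 22 genes of 5 lists that hold no member. Filled points passed an adjusted p of 0.05. The points of 13 genes lie to the left of 0 and filled, and KEULE (AT1G12360) and KRP125a (AT2G37420) lie to the right and filled.

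In the gene table the members spanned 922 to 5956 bp, with a median of 2548 bp, against 2325 bp in the evenly high set and 2079 bp over all genes that could enter. Chromosomes 1 and 5 held 21 members each, chromosome 2 held 9, chromosome 3 held 6 and chromosome 4 held 4. Those shares were 34.4% each on chromosomes 1 and 5, where 26.0% and 22.7% of the genes that could enter lie. They were 14.8% on chromosome 2, where 16.4% lie, 9.84% on chromosome 3, where 20.5% lie, and 6.56% on chromosome 4, where 14.4% lie. The differences were not tested, and the shares of the evenly high set were not taken. No pair of members was adjacent. The closest, AT4G26620 and AT4G26660, had 3 protein coding genes between them and unlike seed coat signal, with AT4G26620 at 327, 391 and 543 in the chalazal seed coat where AT4G26660 was under the bound. Probe sets with a gene symbol met the same rule in 12 of 142 evenly high cases, 8.45%, close to the 7.91% of those with a locus code.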

How the data were processed

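The deposited values are signal intensity from the Affymetrix GCOS software, per the submitters' processing notes (version not given in the sources used here). Scaling by the authors left a trimmed mean near 500 on all 16 arrays. Of 22746 Arabidopsis probe sets, 13513 name 1 gene in the platform annotation, 503 several and 8730 none; 13484 of the 13513 matched the TAIR10.1 gene table, used for names, spans and gene order. No sequence was used here.

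Members were chosen on deposited signals. For tests, log2(signal + 30.2), the offset being the 25th percentile, was centred by array on the median of the probe sets tested, those that exceeded the 40th percentile of at least 2 arrays, 19475 in all. limma 3.58.1 in R 4.3.3 fitted 7 group means over the 16 arrays, with an intensity trend, two-sided tests and Benjamini-Hochberg adjustment. The fit was tested on simulated data and at this array number missed part of the differences put in, also of the larger ones. The share of these found fell short of the criterion first set. That criterion was then replaced, after the outcome was seen, by bounds on bias, on p-values without a difference and on false calls, which were met. An "at least" fold sets the low side at its background bound. Raw p-values are those of limma.

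The members and lists were chosen with earlier results of these data known, and the bound after seeing the data. The rule for shown genes took up to 5 members by mean signal in the 3 regions, up to 6 per direction called in each test, those nearest the 4-fold threshold, and up to 5 per list. It asked for groups by product name; the table names 1, so all members formed 1 group. Other members shown, in the account of the seed coats and of background, and list genes beyond 5 were picked after their values were seen. The labels do not say whether samples with the same replicate number share plants or sections, and the main fit did not pair them. The 42 correlations of same-numbered deviations ran from -0.044 to 0.097, which cannot exclude shared material. In groups of 2 arrays the deviations mirror each other, so many of these values repeat and are not separate checks.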

Additional observations from a re-analysis of the deposited data

How the results depend on the processing

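The number of members depends on the thresholds. The rule chose 30 probe sets at 6-fold, 121 with means within 2-fold, 21 with means held closer than 1.5-fold, 39 after quantile normalization, of which 37 were members, and 51 to 91 when 1 array was left out. Members lower in the chalazal seed coat numbered 2 to 8 and members higher 0 to 2 when 1 array was left out. The number higher was 2 with an offset of 100, with quantile normalization and with array weights. Members higher in whole seeds numbered 4 to 8 when 1 array was left out. No difference that passed its test for a named gene changed sign in the settings run; genes that did not pass were not followed. With the replicate number as a block, 9 members were lower and 1 higher in the chalazal seed coat, 8 were higher in whole seeds, and 13 list genes were lower and 2 higher. Over all probe sets, those lower in whole seeds, 65, became 23 with an offset of 1, 146 with an offset of 100, 32 without centring and 179 with array weights. Higher calls in the chalazal endosperm, 4888, were 3350 without centring. The causes were not tested. Precision is limited by the array number, and differences that reach the bound have no exact size.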
